A study of Homo sapiens with 8 samples.

Results

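The COP9 signalosome is the complex that removes the ubiquitin-like protein NEDD8 from cullins, and its subunits are the 10 genes GPS1, COPS2, COPS3, COPS4, COPS5, COPS6, COPS7A, COPS7B, COPS8 and COPS9. They are listed by gene name, with no threshold on measured values, and all 10 were found among the 61533 gene identifiers of the count tables. All 10 also passed the filter on low counts that left 18738 genes for testing. RNA was measured in 2 established human squamous carcinoma lines, A431 (epidermoid carcinoma) and CAL27 (squamous cell carcinoma). Each line received either DMSO, the solvent, or a compound that the labels name only NEDD8i and the file headers MLN, for 16 h. This gave 4 groups of 2 libraries, labelled A431 DMSO, A431 NEDD8i, CAL27 DMSO and CAL27 NEDD8i. No genetic change or second agent is named for any group, and the sources used here give no dose. Nothing in the labels tells if paired libraries stem from different cultures. The p-values then cover the spread between these libraries alone, and that spread may be technical. Each squamous type is represented by 1 line, so a difference between the lines is not a difference between tumour types.

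Cullins are the scaffolds of the largest family of ubiquitin ligases. A NEDD8-activating enzyme and its conjugating enzymes attach NEDD8 to a cullin, which activates the ligase, and the COP9 signalosome takes NEDD8 off again, which lets the ligase be disassembled and loaded with another substrate receptor. COPS5 carries the metalloprotease site that cuts NEDD8 from the cullin, COPS6 is its inactive partner of the same MPN fold, and GPS1, COPS2, COPS3, COPS4, COPS7A or COPS7B, and COPS8 share the PCI fold and form the scaffold. COPS7A and COPS7B are paralogs that take the same place in alternative forms of the complex, and COPS9 is a short acidic subunit.

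Total counts ranged from 49037868 to 62509817 over the 8 libraries. Of 10 squamous epithelial markers (KRT5, KRT14, TP63 and others) all passed the filter. Their summed level was 13000 to 22800 CPM (counts scaled to a common library size, here without further scaling). The sum hides opposite changes. By the test described below, 5 rose and 3 fell under NEDD8i in A431, and 5 rose and 5 fell in CAL27. Of all genes, 43.6% and 49.6% were called. In CAL27 TP63 was at 556 and 559 CPM with DMSO and 123 and 109 with NEDD8i, while SFN went from 912 in both to 3380 and 3570. The leukocyte marker PTPRC and the melanocyte marker DCT were at 0 counts in every library. Of the other melanocyte markers, PMEL was at 0.789 to 2.93 CPM and MLANA at 0 to 0.274 CPM. Summed levels of 5 fibroblast markers were 22.2 to 38.9 CPM under DMSO and 6.46 to 17 under NEDD8i, and CD14, which made nearly all of the leukocyte sum, was at 6.34 to 18.8 and 0.816 to 1.72. Of 3 endothelial markers the sum was 22 and 19.7 CPM with DMSO and 5.18 and 4.91 with NEDD8i in A431, and 7.06 and 6.29 against 10.7 and 10.3 in CAL27, most of it CDH5. The part of these shifts in the results below was not tested. In RNA from a whole culture, fewer cells of a kind and less RNA per cell cannot be told apart.

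Levels below are CPM scaled by TMM (trimmed mean of M-values), given as the value of each library or as mean ± SD (n = 2). Changes are log2 fold changes of NEDD8i against DMSO with an approximate standard error after the ±. Tests are edgeR quasi-likelihood tests with Benjamini-Hochberg adjustment across the 18738 genes, and a gene is called at an adjusted p under 0.05.

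NEDD8i left the COP9 subunits within a narrow range of their DMSO levels, but most of them moved by more than the spread between libraries, and COPS7A moved against its paralog COPS7B in both lines. In A431 7 of 10 were called, while 43.6% of all genes tested were called: COPS3, GPS1, COPS7B, COPS2 and COPS8 were higher, COPS7A and COPS6 lower. In CAL27 all 10 were called, 9 higher and COPS7A lower, against 49.6% of all genes. By direction, 22.5% of all genes were called higher and 21.1% lower in A431, and 23.2% and 26.4% in CAL27. On library totals in place of TMM, 41.6% of the calls over all genes in A431 were higher (3466 higher and 4869 lower), against 51.7% with TMM (4224 and 3951). The libraries of the groups did not overlap for 9 of 10 subunits in A431 (67.4% of all genes) and 10 of 10 in CAL27 (74.6%). The median log2 change of the subunits was 0.16 in A431 and 0.35 in CAL27, beside -0.01 and -0.04 over all genes tested. In size the changes were modest: the median absolute log2 change was 0.27 and 0.38 for the subunits and 0.48 and 0.57 for all genes. The subunits had group means of 21.1 to 232 CPM, while all genes include far lower ones, such as CAND2 at 0.0802 to 0.29. Neither the sizes nor the shares called were matched for level. No subunit changed by more than 1.56-fold with all 8 libraries.

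**Figure D1:**
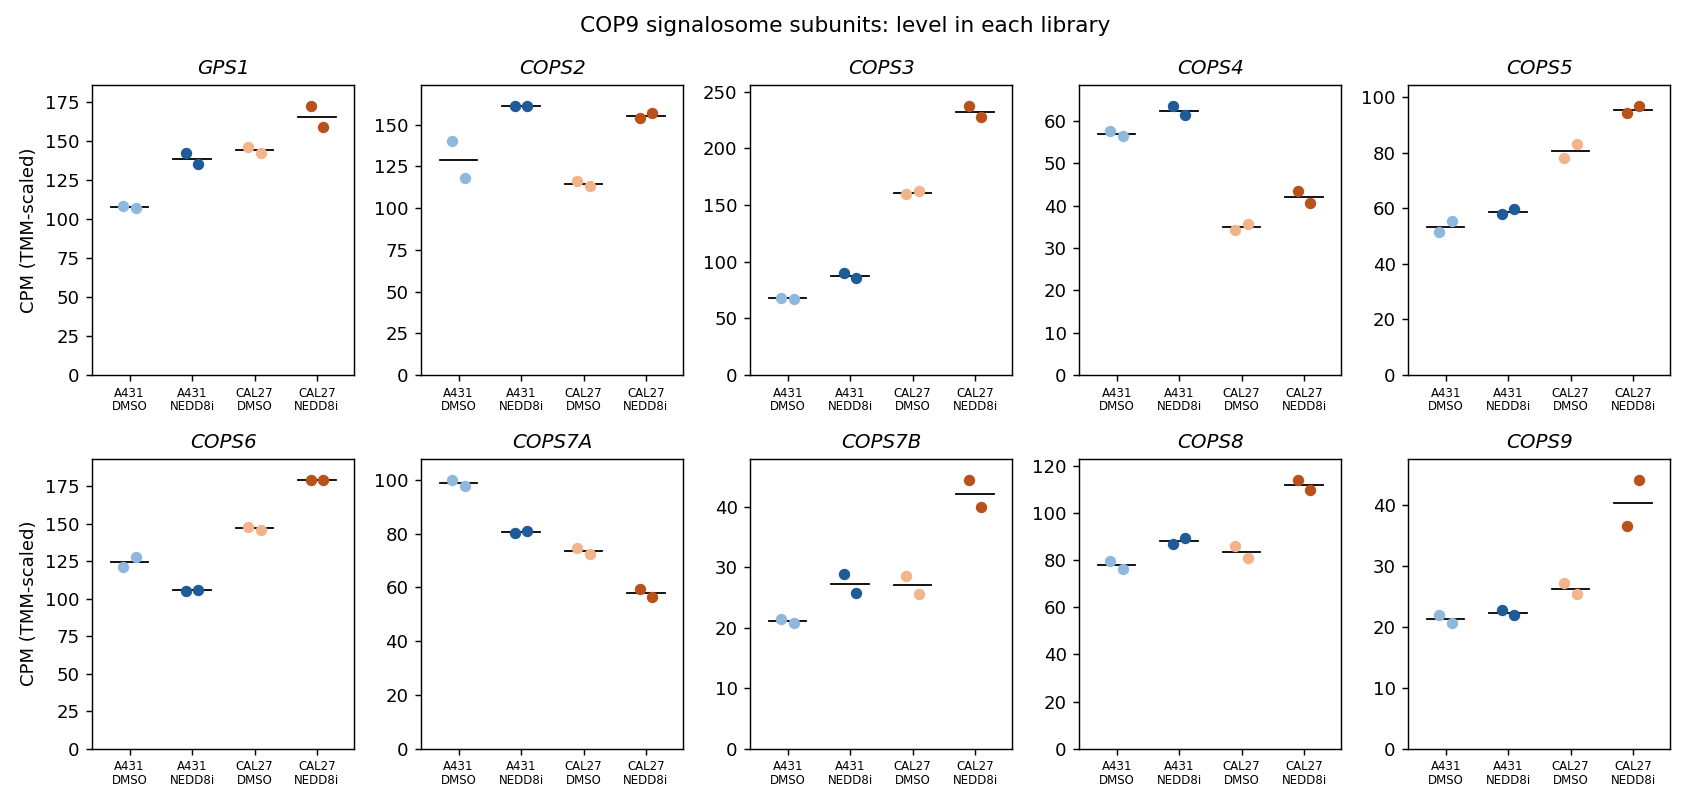
Level of each COP9 signalosome subunit (vertical axis, TMM-scaled CPM from 0) in the 8 libraries, 1 point per library, with a line at each group mean (n = 2). COPS7A is lower under NEDD8i in both lines and COPS7B higher, while COPS6 is lower under NEDD8i in A431 and higher in CAL27.

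Among the PCI subunits of the scaffold, COPS3 showed the lowest p-value in both lines. COPS3 (ENSG00000141030.13, chromosome 17, 17246616 to 17281246 on GRCh38) stood in A431 at 68.1 and 67.3 CPM with DMSO and at 90 and 85.2 with NEDD8i. In CAL27 its levels were 160 and 162 CPM under DMSO and 237 and 228 under NEDD8i. The groups of a line did not overlap, and the changes were 0.37 ± 0.05 (edgeR adjusted p = 1.31e-05) in A431 and 0.53 ± 0.05 (edgeR adjusted p = 8.48e-08) in CAL27. Both A431 NEDD8i libraries lay below both CAL27 DMSO libraries, so the difference between the lines was wider than the response within a line.

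GPS1, the subunit also known as CSN1, followed the same direction (ENSG00000169727.13, chromosome 17, 82051875 to 82057470). It stood at 108 and 107 CPM under DMSO and 142 and 135 under NEDD8i in A431, a change of 0.37 ± 0.05. In CAL27 the levels were 146 and 142 CPM under DMSO and 172 and 159 under NEDD8i, a change of 0.20 ± 0.05. The A431 NEDD8i and CAL27 DMSO libraries met at 142 CPM, so these 2 groups are neighbours that the spread does not separate. The GPS1 call in CAL27 (edgeR adjusted p = 0.0049) ended without CAL27 NEDD8i replicate 1 (change 0.13, edgeR adjusted p = 0.0758) and with library totals in place of TMM (change 0.12, edgeR adjusted p = 0.0747).

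COPS2, the subunit that grips the cullin and its RING partner (ENSG00000166200.15, chromosome 15, 49122727 to 49155661), had the widest spread under A431 DMSO, with 140 and 118 CPM in the libraries. Under NEDD8i both A431 libraries were at 161 CPM, above the 2 DMSO libraries. The change was 0.32 ± 0.07 (edgeR adjusted p = 0.000693), and it was 0.46 without A431 DMSO replicate 1 and 0.19 without replicate 2, called in both cases (edgeR adjusted p = 0.0177 for the smaller). In CAL27 COPS2 stood at 116 and 113 CPM under DMSO and at 154 and 157 under NEDD8i, a rise of 0.45 ± 0.07 with tight groups.

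COPS4 is the PCI subunit that, with COPS2, clamps the cullin end of the ligase (ENSG00000138663.9, chromosome 4, 83034447 to 83075818). Its A431 libraries were at 57.5 and 56.5 CPM under DMSO and 63.4 and 61.3 under NEDD8i. These groups did not overlap, but the change of 0.13 did not pass the test (95% interval -0.02 to 0.28, edgeR adjusted p = 0.149). In CAL27 it rose by 0.27 ± 0.07, from 34.1 and 35.6 to 43.4 and 40.5 CPM. That call (edgeR adjusted p = 0.00455) ended without CAL27 NEDD8i replicate 1 (0.21, edgeR adjusted p = 0.0531). COPS4 was the subunit whose CAL27 libraries, treated or not, all lay below all A431 libraries by the widest margin.

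COPS8, the smallest PCI subunit (ENSG00000198612.11, chromosome 2, 237085882 to 237100474), stood at 79.8 and 76.3 CPM under DMSO and 86.7 and 89.4 under NEDD8i in A431. Its change of 0.17 ± 0.06 was the weakest call there (edgeR adjusted p = 0.024). It was not called without A431 DMSO replicate 2 (0.14), without A431 NEDD8i replicate 1 (0.20) or 2 (0.16), or with upper quartile scaling (0.10) or library totals (0.07). In CAL27 COPS8 rose by 0.42 ± 0.06, from 86.2 and 80.8 to 114 and 110 CPM. A pseudogene, COPS8P2, had 0 to 24 counts a library, against 3934 to 6561 for COPS8.

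The catalytic subunit COPS5 changed little. COPS5 (ENSG00000121022.14, chromosome 8, 67043079 to 67064943) stood in A431 at 51.3 and 55.5 CPM with DMSO and 57.9 and 59.7 with NEDD8i. The groups did not overlap, but the change of 0.14 ± 0.06 did not pass the test (95% interval 0.00 to 0.28, edgeR adjusted p = 0.0934). In CAL27 it rose by 0.24 ± 0.06, from 78 and 83.3 to 94.2 and 96.7 CPM (edgeR adjusted p = 0.00369). Of its exonic bases 5.68% also lie in exons of CSPP1, where reads were dropped.

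COPS6, the partner of COPS5, was the only subunit called in opposite directions in the 2 lines. COPS6 (ENSG00000168090.10, chromosome 7, 100088969 to 100092187) stood at 121 and 128 CPM under DMSO and 105 and 106 under NEDD8i in A431, a fall of -0.23 ± 0.05 (edgeR adjusted p = 0.000868). In CAL27 it was at 148 and 146 CPM under DMSO and 179 in both NEDD8i libraries, a rise of 0.28 ± 0.05 (edgeR adjusted p = 0.000102). In neither line did the groups overlap. The response in CAL27 minus that in A431 was 0.52 ± 0.07 (edgeR adjusted p = 1.57e-05).

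The paralogs COPS7A and COPS7B parted in both lines. COPS7A (ENSG00000111652.10, chromosome 12, 6724014 to 6731875) stood at 99.9 and 97.9 CPM under DMSO and 80.1 and 81 under NEDD8i in A431. In CAL27 it stood at 74.7 and 72.6 CPM under DMSO and at 59.5 and 56.4 under NEDD8i. The falls of -0.30 ± 0.06 (edgeR adjusted p = 0.000435) and -0.35 ± 0.06 (edgeR adjusted p = 8.61e-05) were 1.23-fold and 1.27-fold, and the groups of a line were apart. Their difference was -0.05 (95% interval -0.22 to 0.13) and did not pass the test.

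COPS7B (ENSG00000144524.18, chromosome 2, 231781671 to 231809254) was the less abundant of the pair in every library. It stood at 21.5 and 20.7 CPM under DMSO and 28.9 and 25.7 under NEDD8i in A431, a rise of 0.37 ± 0.10 (edgeR adjusted p = 0.00466). In CAL27 it rose from 28.5 and 25.6 to 44.4 and 39.9 CPM, by 0.64 ± 0.09 (edgeR adjusted p = 1.81e-05) (1.56-fold). The A431 call ended without A431 NEDD8i replicate 1 (0.29, edgeR adjusted p = 0.0664). The difference between the responses was 0.27 (95% interval -0.02 to 0.56, edgeR adjusted p = 0.144).

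Set against each other within a library, the 2 paralogs give a share that no library scaling can move. In A431, COPS7A took 82.3% and 82.6% of the counts of the pair with DMSO and 73.5% and 75.9% with NEDD8i. In CAL27 it took 72.4% and 73.9% with DMSO and 57.3% and 58.6% with NEDD8i. As group means these are 82.4% ± 0.21 and 74.7% ± 1.7 in A431 and 73.2% ± 1.1 and 57.9% ± 0.92 in CAL27 (SD, n = 2). The groups of a line were apart by more than the spread between replicates. Of the A431 NEDD8i libraries, replicate 1 lay within the range of the CAL27 DMSO libraries and replicate 2 above it. An exact permutation test of 2 libraries against 2 cannot go below p = 0.333, so none was run. Shares are of counts over each whole gene, and the exons of neither gene are shared with another gene.

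**Figure D2:**
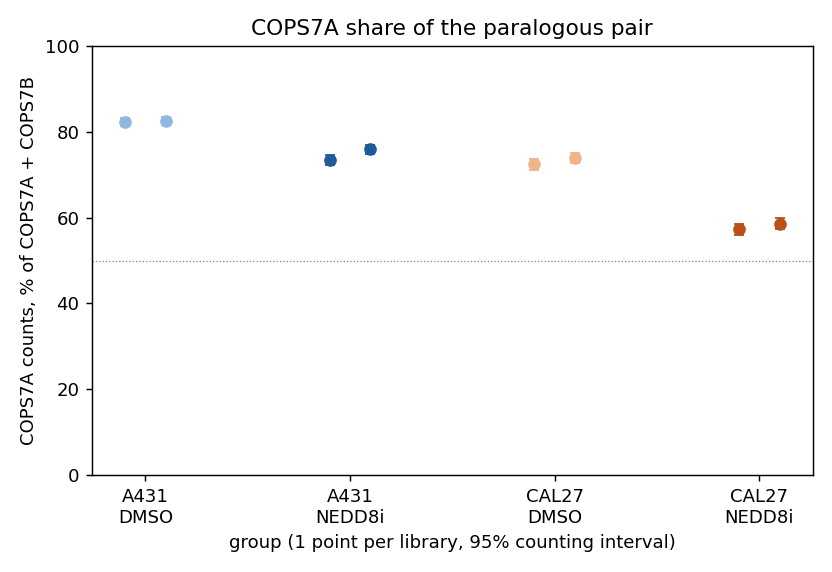
COPS7A counts as a percent of COPS7A plus COPS7B counts (vertical axis, 0 to 100%) in each library, with 95% exact binomial intervals that cover counting error only. The share is lower under NEDD8i in both lines, from 82.3% and 82.6% to 73.5% and 75.9% in A431 and from 72.4% and 73.9% to 57.3% and 58.6% in CAL27.

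COPS9, the short acidic subunit (ENSG00000172428.11, chromosome 2, 240126563 to 240136347), responded in CAL27. Its A431 libraries were at 22 and 20.6 CPM under DMSO and 22.8 and 21.9 under NEDD8i, and these groups overlapped. The change of 0.07 did not pass the test (95% interval -0.15 to 0.28, edgeR adjusted p = 0.648), and its sign depends on the scaling, with -0.03 on library totals. In CAL27 the levels were 27.2 and 25.4 CPM under DMSO and 36.5 and 44.1 under NEDD8i, a rise of 0.62 ± 0.10 (edgeR adjusted p = 4.79e-05). Relative to the level, the 2 treated libraries differed more from each other than those of any other subunit there, and the rise was 0.48 without CAL27 NEDD8i replicate 2 and 0.74 without replicate 1, called in both cases.

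**Figure D3:**
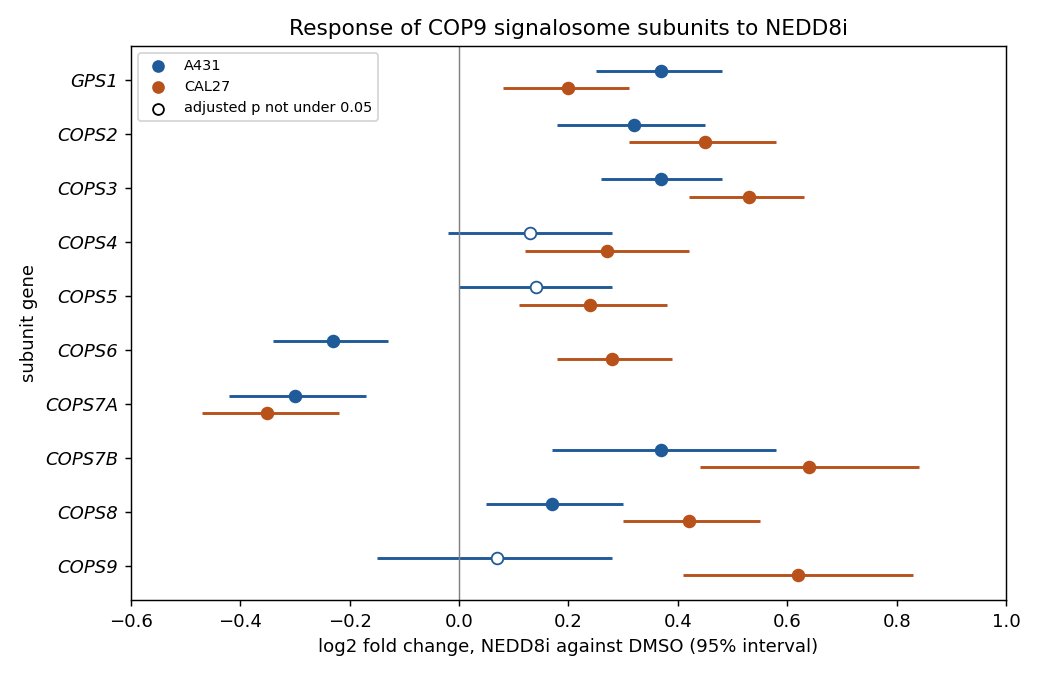
Log2 fold change of each subunit, NEDD8i against DMSO, with its 95% interval from the quasi-likelihood fit (horizontal axis), for A431 and CAL27. Filled points passed an adjusted p of 0.05, as 7 did in A431 and 10 in CAL27, and COPS7A is the only subunit below 0 in both lines.

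Whether the 2 lines responded differently was tested as the CAL27 change minus the A431 change. The test called 3 of 10 subunits, all higher in CAL27, and 34.0% of all genes tested (14.2% higher and 19.8% lower). They were COPS6 (0.52), COPS9 (0.55 ± 0.14, edgeR adjusted p = 0.00603) and COPS8 (0.25 ± 0.08, edgeR adjusted p = 0.0268). COPS8 lost this call without any 1 of 5 libraries, namely A431 DMSO replicate 1, A431 NEDD8i replicate 1 or 2, CAL27 DMSO replicate 2 and CAL27 NEDD8i replicate 1, with values of 0.21 to 0.26. For the remaining 7, differences ran from -0.17 for GPS1 to 0.27 for COPS7B and did not pass. Of these, 3 passed under some alternative. COPS3 (0.16) passed with RLE scaling (0.19), upper quartile scaling (0.23) and DESeq2 (0.19), COPS2 (0.13) without A431 DMSO replicate 2 (0.27), and GPS1 without CAL27 NEDD8i replicate 1 (-0.24).

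The complex as a whole was summed over its 10 genes as a description, without a test. The sum was 769.3 and 748.1 CPM with DMSO and 838.5 and 826 with NEDD8i in A431. In CAL27 it was 898.7 and 886.6 CPM under DMSO and 1134 and 1110 under NEDD8i. With this scaling NEDD8i exceeded DMSO by 9.69% in A431 and 25.7% in CAL27. On library totals, an alternative added after the values were seen, the excess was 2.19% in A431 (772 and 752 CPM with DMSO, 781.4 and 776 with NEDD8i) and 18.8% in CAL27.

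Between the untreated lines, 9 of 10 subunits differed, 6 higher in CAL27 and 3 lower, where 58.9% of all genes were called (29.9% higher and 29.0% lower). The libraries of the lines did not overlap for 10 of 10 subunits and for 79.4% of all genes. COPS3 stood furthest apart, at 67.7 ± 0.539 CPM in A431 and 161 ± 1.72 in CAL27, a 2.38-fold difference (log2 1.25 ± 0.05, edgeR adjusted p = 1.02e-12). COPS5 was higher in CAL27 by 0.60 ± 0.06 and GPS1 by 0.42 ± 0.05, and COPS7B, COPS9 and COPS6 by 0.36, 0.31 and 0.24. COPS4 was lower in CAL27, at 34.9 ± 1.11 against 57 ± 0.76 CPM (-0.71 ± 0.07, edgeR adjusted p = 1.27e-07). COPS7A was lower by -0.43 ± 0.06, so the paralogs differed between the untreated lines in the same directions as under NEDD8i. COPS8 did not pass (0.10, 95% interval -0.03 to 0.22, edgeR adjusted p = 0.175), but did on library totals (0.17, edgeR adjusted p = 0.017).

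Some of these line differences were less stable. COPS2 was called lower in CAL27 (-0.18, edgeR adjusted p = 0.029) but stood at -0.04 without A431 DMSO replicate 1 and -0.31 without replicate 2. Its call ended in 7 of 17 alternatives, among them the fits without A431 NEDD8i replicate 2 (-0.15) and without CAL27 DMSO replicate 1 (-0.20) or 2 (-0.15). COPS7B was not called without CAL27 DMSO replicate 1 (0.28), and COPS9 not without A431 DMSO replicate 2 or CAL27 DMSO replicate 1 (0.25 for each).

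Per kilobase of exon, COPS6 was the most abundant subunit in all 4 groups, at 88.8 CPM per kb in A431 DMSO and 105 in CAL27 DMSO. COPS7B was the least abundant in all 4, at 7.31 and 9.38 CPM per kb under DMSO in A431 and CAL27. In A431 DMSO the order from the top went on with GPS1 at 45.4 CPM per kb, COPS7A at 43.6, COPS3 at 33.5 and COPS5 at 28.1. In CAL27 DMSO COPS3 came next after COPS6, at 79.8 CPM per kb, ahead of GPS1 at 60.9 and COPS5 at 42.4. The kit primes on poly(A) tails and reads near 3' ends, so counts need not scale with exon length, and the order between genes is a description only.

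Genes near each subunit were set beside the line comparison, in a description chosen after the values were seen. Any part of position in the line differences was not tested. Within 1 Mb of COPS3, 41 other genes were tested, 13 higher and 6 lower in CAL27 (29.9% and 29.0% of all genes), with a median log2 difference of 0.32 (0.67 over 75 genes within 2 Mb). Within 1 Mb of COPS4, 2 of 21 genes were higher and 12 lower in CAL27, with a median of -0.50. The median over all genes was 0.05. The neighbours of GPS1, COPS7A and COPS7B had medians of -0.08, 0.20 and -0.15, each against the direction of the subunit itself. Those of COPS8, which was not called between the lines, had a median of 1.21 over 15 genes (0.64 over 25 within 2 Mb). For COPS2, COPS5, COPS6 and COPS9 the medians were -0.02, 0.23, 0.08 and 0.16 (0.32, 0.23, 0.16 and 0.23 within 2 Mb). COPS7B, COPS8 and COPS9 all lie on the long arm of chromosome 2, between positions 231781671 and 240136347.

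The genes with the most similar pattern to COPS3, the subunit with the widest span of group means, were POMP, which encodes the proteasome maturation protein, PICALM, an endocytic clathrin adaptor, and FLII. Likeness was the root mean square difference of log2 CPM over the 8 libraries after each gene was centred on its mean, and it was 0.055 for POMP, 0.058 for PICALM and 0.072 for FLII, beside a median of 0.95 over all genes. FLII lies 0.964 Mb from COPS3 on chromosome 17. Their changes were 0.36 in A431 and 0.59 in CAL27 for POMP, 0.36 and 0.55 for PICALM and 0.24 and 0.42 for FLII. For COPS5 the closest were SNHG6, a small nucleolar RNA host gene that lies 0.117 Mb away on chromosome 8, SMS, the spermine synthase gene, and GAPVD1, at 0.045, 0.050 and 0.052 beside a median of 0.74. These genes were picked as the closest of all genes tested, so their place below the median was fixed by the choice.

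Promoter sequences from RefSeq (GRCh38.p14, from 250 bases before to 50 after a start site) were found for 9 of the 10 subunits, COPS5 being the exception. Both strands were searched for 8 motifs. The antioxidant response element TGACNNNGC, the site of NRF2, matched in GPS1, COPS3, COPS7A and COPS8, 4 of 9 subunits, and in 16.1% of all genes with a promoter sequence. The E-box CACGTG matched in COPS7A alone of the subunits, and in 8.77% of all genes. The ETS site CCGGAAG matched in GPS1, COPS7A, COPS7B and COPS9 and in 12.2% of all genes. The ATF4 and CHOP site TGATGNAA (4.46% of all genes), the CRE TGACGTCA (2.25%) and the NRF1 site (6.98%) matched in no subunit. The hypoxia element core matched as ACGTG in GPS1 and COPS7A (24.9% of all genes) and as GCGTG in 6 subunits (40.6%). The letters ACGTG are part of the E-box, so each E-box match in COPS7A is also a match of that core, while GPS1 had no E-box.

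The sites below, each with 10 bases on either side and written in the direction of the gene, show what the matches look like in subunits that rose and in COPS7A, which fell. Capitals mark the match, and 1 site is shown per gene and motif.
GPS1 antioxidant response element, chr17:82050913-82050941, plus strand: cctcacgcgcTGACCCTGCtggtgccacc
COPS3 antioxidant response element, chr17:17281280-17281308, minus strand: ccagcggaagTGACGTCGCcgctcgcgag
COPS7A antioxidant response element, chr12:6724095-6724123, plus strand: ctgccggaggTGACGGAGCggcggccccg
COPS8 antioxidant response element, chr2:237085811-237085839, plus strand: cagcgatgtcTGACGGCGCcccggaactg
COPS7A E-box, chr12:6724264-6724289, plus strand: ggggtgaggtCACGTGgttgtgggcg
COPS7A ETS site, chr12:6724014-6724040, plus strand: ggaagtacggCCGGAAGcccgccatag
COPS7B ETS site, chr2:231786385-231786411, plus strand: cggtgggaggCTTCCGGgggagctgca

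The paralogs share a match of the ETS site, which in COPS7B lies on the strand opposite to the gene and 50 bases before its second listed start. The antioxidant element and the E-box were matched in COPS7A and not in COPS7B. A match is a description of the letters and shows no binding. Genes with several listed starts, such as GPS1 with 3, offer more bases to match.

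The proteasome lid and part of eIF3 are built on the PCI and MPN folds of the COP9 signalosome. The eIF3 list also holds subunits outside these folds, among them EIF3B, EIF3I and EIF3J. Of 9 subunits of the proteasome lid, 6 rose and 0 fell in A431 and 7 rose and 1 fell in CAL27. Of all genes, 22.5% rose and 21.1% fell in A431, and 23.2% rose and 26.4% fell in CAL27. The median log2 changes of the lid were 0.44 and 0.48. PSMD14, the deubiquitinase of the lid and the relative of COPS5, rose by 0.70 ± 0.04 in A431 and by 0.50 ± 0.04 in CAL27. PSMD11 rose by 0.73 ± 0.05 and 0.61 ± 0.05 and PSMD12 by 0.68 ± 0.05 and 0.90 ± 0.05. PSMD7, the inactive MPN partner of PSMD14, had a change of 0.12 in A431 that did not pass and fell by -0.90 ± 0.06 in CAL27, whereas COPS6 fell in A431 and rose in CAL27. Exons of other genes cover 27.6% of the exonic bases of PSMD7.

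Of 13 subunits of the translation factor eIF3, 6 rose and EIF3H fell in A431, and 10 rose and 0 fell in CAL27. Calls were 53.8% and 76.9% of the list, beside 43.6% and 49.6% of all genes. The median log2 changes were 0.09 and 0.19. EIF3J rose by 0.56 ± 0.05, EIF3M by 0.47 ± 0.05 and EIF3I by 0.33 ± 0.04 in A431. In CAL27 EIF3J rose by 0.20 ± 0.05, EIF3M by 0.26 ± 0.05 and EIF3I by 0.51 ± 0.04, and the EIF3J response was smaller in CAL27 (difference -0.36, edgeR adjusted p = 0.000435). The EIF3J call in CAL27 ended on library totals (0.11, edgeR adjusted p = 0.0553). EIF3B rose by 0.29 ± 0.05 in A431 and 0.42 ± 0.04 in CAL27. EIF3A was at 0.07 in A431, where it did not pass and was at -0.04 on library totals, and rose by 0.31 ± 0.05 in CAL27. No test compared these complexes with the COP9 signalosome.

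**Figure D4:**
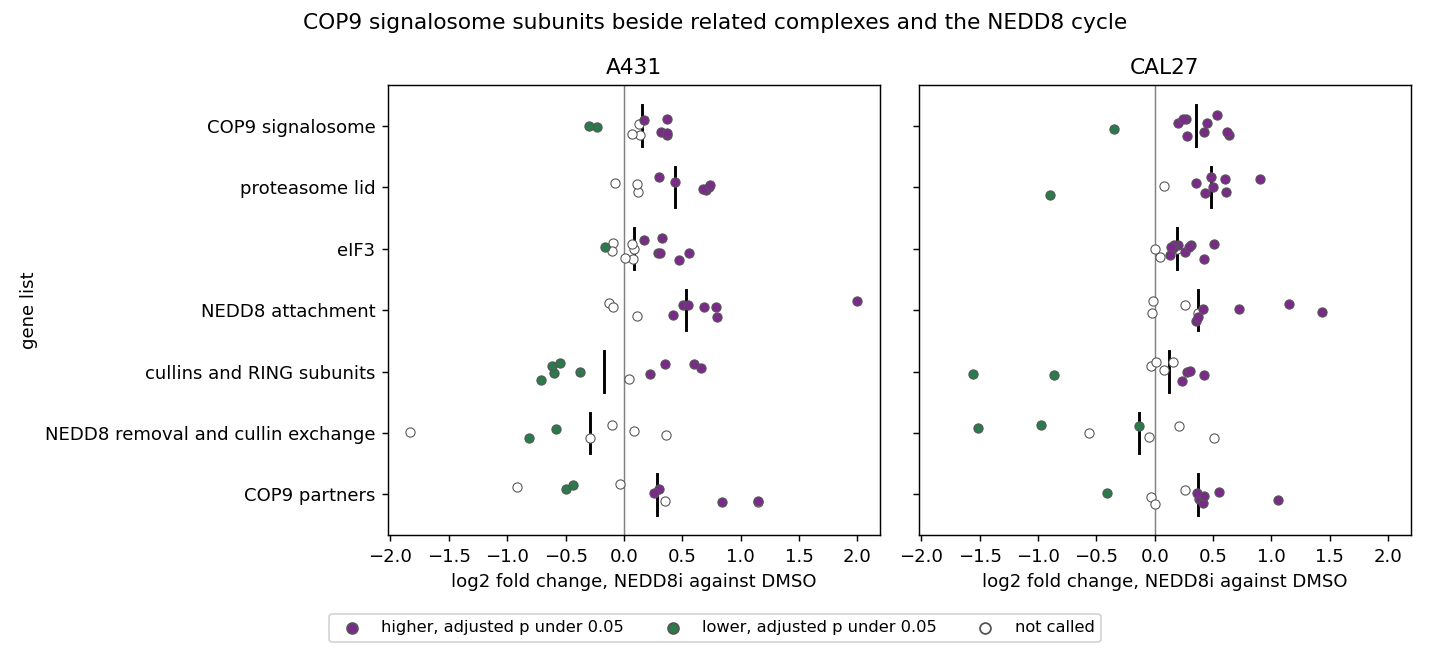
Log2 fold change, NEDD8i against DMSO (horizontal axis), by gene list in A431 (left) and CAL27 (right). The lists are the COP9 subunits, 2 related complexes, NEDD8 attachment, cullins with RING subunits, other NEDD8 removal and cullin exchange, and known partners. Each gene is 1 point, coloured by call, with a bar at each median. The COP9 medians are 0.16 and 0.35, and the list of other NEDD8 removal genes has medians of -0.29 and -0.13.

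The list of NEDD8 attachment holds NEDD8 itself, its E1 and E2 enzymes and the DCN1-like cofactors of its transfer. Of 10 members, 7 rose in A431 and 6 in CAL27, and 0 fell (medians 0.53 and 0.37). Calls were 70.0% and 60.0% of the list, beside 43.6% and 49.6% of all genes (22.5% and 23.2% higher). UBE2M, an E2 enzyme, rose by 0.79 ± 0.06 and 0.72 ± 0.06, and was the only one of the E1 and E2 genes called in CAL27. DCUN1D3, a DCN1-like cofactor, rose most, from 7.27 ± 1.94 to 29.1 ± 0.62 CPM in A431 (3.99-fold) and from 6.85 ± 0.0376 to 18.5 ± 0.475 CPM in CAL27 (1.43 ± 0.15). DCUN1D5, with 40.2% of its exonic bases shared with other genes, rose by 0.80 ± 0.07 in A431 and 0.37 ± 0.07 in CAL27, and DCUN1D2 by 0.51 ± 0.13 and 1.15 ± 0.12.

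Of 7 other genes of NEDD8 removal and cullin exchange, 0 rose in either line. NUB1 and SENP8 fell in A431, and NUB1, SENP8 and CAND1 fell in CAL27. Calls were 28.6% and 42.9% of the list, beside 43.6% and 49.6% of all genes. Group means were 0.0802 to 0.29 CPM for CAND2 and 0.915 to 2.82 CPM for UCHL3. Other genes share 51.3% of the exonic bases of UCHL3. A rise of either gene would be hard to call at such levels. SENP8, the protease that processes NEDD8 and removes it from proteins other than cullins, went from 5.82 ± 0.326 to 3.31 ± 0.654 CPM in A431 (-0.81 ± 0.25, edgeR adjusted p = 0.0133), a call that ended without A431 DMSO replicate 1 (-0.74) or A431 NEDD8i replicate 1 (-0.62). In CAL27 it went from 2.52 ± 0.336 to 0.884 ± 0.116 CPM (-1.51 ± 0.28, edgeR adjusted p = 0.000177). NUB1, which promotes degradation of NEDD8, fell by -0.58 ± 0.06 and -0.97 ± 0.06. CAND1, which exchanges the substrate receptors of cullins that lack NEDD8, was at -0.10 ± 0.04 in A431, where it did not pass, and fell by -0.13 ± 0.04 in CAL27. The CAND1 call in CAL27 ended in 5 of 17 alternatives, among them RLE scaling (-0.10) and the fits without A431 NEDD8i replicate 1 (-0.11) or CAL27 DMSO replicate 1 (-0.11) or 2 (-0.12). In A431 CAND1 was called in 5, among them upper quartile scaling (-0.17) and library totals (-0.20).

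The substrates of the COP9 signalosome, the cullins, were listed with their RING subunits. Of these 10 genes, 4 rose and 5 fell in A431, and 4 rose and 2 fell in CAL27. Over all genes tested, the shares called higher and lower were 22.5% and 21.1% in A431, and 23.2% and 26.4% in CAL27. CUL3 rose in both lines, by 0.60 ± 0.05 and 0.42 ± 0.05, and CUL9 fell in both, by -0.71 ± 0.13 in A431 and -1.56 ± 0.15 in CAL27. CUL7 fell by -0.86 ± 0.14 in CAL27. Its A431 call (-0.38 ± 0.14, edgeR adjusted p = 0.0425) ended in 8 of 17 alternatives, among them DESeq2 (-0.38) and the fits without any 1 of the A431 libraries (-0.28 to -0.47) or of the CAL27 DMSO libraries (-0.37). CUL1 rose by 0.66 ± 0.06 and CUL4B fell by -0.60 ± 0.07 in A431, and neither passed in CAL27 (-0.03 and 0.08). 

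Of 10 known partners of the complex, 4 rose and 2 fell in A431, and 6 rose and 1 fell in CAL27. Calls were 60.0% and 70.0% of the list, beside 43.6% and 49.6% of all genes. Some partners were poorly measured. MIF had group means of 0.0782 to 0.177 CPM, with 92.3% of its exonic bases shared with other genes. PRKD1 was at 0 CPM in CAL27, and 50.1% of the exonic bases of CSNK2B are shared. JUN, a transcription factor that binds COPS5, rose by 1.15 ± 0.07 and 1.06 ± 0.07. The catalytic subunits of casein kinase 2, which phosphorylates the complex, rose in both lines, CSNK2A2 by 0.84 ± 0.08 and 0.55 ± 0.07 and CSNK2A1 by 0.26 ± 0.05 and 0.38 ± 0.05. The inositol phosphate kinases changed in opposite directions in the 2 lines. IP6K1 fell by -0.50 ± 0.07 in A431 and rose by 0.36 ± 0.07 in CAL27, and ITPK1 rose by 0.30 ± 0.05 in A431 and fell by -0.41 ± 0.05 in CAL27.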

How the data were processed

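The authors deposited raw read counts per gene in a separate table for each library. STAR and GRCh38 are named per the submitters' processing notes. Per the file headers, featureCounts 2.0.8 counted a filtered alignment over exons of the basic GENCODE 39 annotation, without strand, so reads of overlapping antisense genes cannot be told apart. Reads over more than 1 gene or place were dropped, and each mate of a pair counted once (70.2% to 76.7% of counts from 1 to 40 were even), so counting intervals are too narrow. Per the labels' protocols, the kit was QuantSeq FWD.

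Differences were computed here with edgeR 4.0.16 in R 4.3.3 (filterByExpr, TMM, quasi-likelihood, 4 group means, 4 residual degrees of freedom). The fit drew the spread of each gene toward that of all genes, with a median of 12.3 prior degrees of freedom. Each p-value and interval so rests largely on spread shared across genes. A standard error is the absolute log2 change divided by the square root of F. Intervals are 95%. The fit was tested on simulated data. DESeq2 1.42.0 and limma 3.58.1 gave alternatives. The chi-square between replicates was 6.54 to 14.1 per degree of freedom, so no library was counted as a duplicate. Counting both mates raises this value. Same-numbered libraries of a line did not deviate together (r = 0.01 and -0.03 across 18738 genes, which are not independent replicates), so the main fit has no block. Of 61533 identifiers 61369 matched a symbol. The subunits, lists and tests were chosen with earlier results of these data known. The text names all subunits and, of each other list, up to 3 members with the lowest p in each line, with their values in the other line. Genes of similar pattern are the 3 closest to the subunit of widest span and to COPS5. A comparison of the subunits' protein sequences was planned and not made here.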

Additional observations from a re-analysis of the deposited data

Results flagged for a closer look

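The response of 3 of 10 subunits differed between the lines by the test of the difference itself (CAL27 change minus A431 change, edgeR quasi-likelihood test). The same test called 34.0% of all genes, so the number of subunits is not above that share. COPS6 differed by 0.52 (edgeR adjusted p = 1.57e-05), with all A431 libraries lower and all CAL27 libraries higher under NEDD8i than under DMSO. COPS9 differed by 0.55 (edgeR adjusted p = 0.00603), and COPS8 by 0.25 (edgeR adjusted p = 0.0268). Over 16 alternatives the adjusted p ran from 1.74e-12 to 0.00017 for COPS6, from 0.00104 to 0.0448 for COPS9 and from 0.00575 to 0.13 for COPS8.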

How the results depend on the processing

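Over all subunits, comparisons and alternatives, 636 subunit results kept their direction and side of the threshold, 25 lost their call, 6 gained one and 3 that were not called changed sign. No called subunit reversed. With a library left out, the number of subunits called higher in A431 ran from 3 to 5 (3 without A431 NEDD8i replicate 1), and the number whose response was lower in CAL27 than in A431 ran from 0 to 1 (1, GPS1, without CAL27 NEDD8i replicate 1). The lone library left in a group was taken to vary like the others. The other counts stayed within 1.5 times under every alternative run. With the replicate number as a block (replicate block), 5 subunits were higher and 2 lower in A431 and 9 higher and 1 lower in CAL27, as without it, and COPS9 alone lost a call, that between the untreated lines (0.22, edgeR adjusted p = 0.14). Library totals in place of TMM moved the median log2 change of all genes to -0.11 in A431 and -0.12 in CAL27, and lowered the share of calls that were higher from 51.7% to 41.6% in A431. The subunit medians there were 0.05 and 0.27, against 0.16 and 0.35 with TMM. The cause of these changes was not tested. The A431 changes of COPS4 and COPS5 did not pass the test, which does not show that they are absent.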
